A study of Sus scrofa with 18 samples.

Results

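Gastrocnemius muscle of pigs that had eaten any insect meal was compared with that of control pigs by taking the arrays of groups IM5 and IM10 together as 1 group. The choice followed the sample titles only and used all 18 of the 18 arrays, 12 from insect meal pigs (6 of group IM5 and 6 of group IM10) and 6 from group CON, with 1 array per pig. All pigs were male Piétrain × (German Landrace × German Edelschwein) crosses, aged 5 weeks when feeding began, and were killed after 4 weeks in the fed state. The diet of group IM5 held 5% insect meal in place of 50% of the soybean extraction meal, that of group IM10 held 10% in place of 100%, and that of group CON held 0%. Cellulose and the added oils and free amino acids differed between the diets as well, so that their part and that of the insect meal cannot be told apart. Each trial group had 10 pigs, of which 6 were put on arrays. The pigs shared pens, and as the sources used here do not say which pig was in which pen, all tests treat the pigs as independent and p-values may be too small for that reason.

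The insect meal was made from larvae of the beetle Tenebrio molitor, the yellow mealworm, and served as a protein source. Gastrocnemius is a calf muscle made up mostly of fast fibres with some slow fibres, and it burns and stores glucose as glycogen. In muscle, immediate-early genes such as ATF3 and JUN are switched on within minutes to hours by contraction, stretch or stress, and the FOXO factors drive ubiquitin ligases that mark muscle protein for breakdown. Pooling both diets asks which transcripts differed from control feeding irrespective of the amount of insect meal.

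Values are log2 expression levels of 25388 probe sets, each counted here as 1 transcript, and differences are insect meal pigs minus group CON. Of these probe sets, 13327 carried 1 gene name, 357 several and 11704 none. In 495 probe sets, 4 of them among the calls below, the values were the same as in another probe set, so that the counts hold some measurements more than once. The array medians lay within 0.09 of each other and correlations between arrays ranged from 0.9775 to 0.9909. The skeletal muscle markers were high in every pig, with a mean level of their 8 probe sets of 12.29 to 12.55 in insect meal pigs and 12.25 to 12.51 in group CON. The 19 probe sets of macrophage and monocyte markers averaged 7.40 in IM10 replicate 2, while the highest of the other 17 pigs, CON replicate 6, had 6.16. Counts and calls in the lists that changed without IM10 replicate 2 are given with and without it. The muscle was measured as a whole, so fewer cells of a type and less RNA per cell cannot be told apart.

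Rises and falls (calls) are transcripts with an unadjusted limma P under 0.05 whose fold change was larger than 1.2. The study used the same thresholds with a t-test in place of limma, for group IM10 against group CON and not for the pooled groups. In insect meal pigs 166 transcripts rose, which is 0.654% of all, and 189 fell, which is 0.744%, together 355 or 1.4%. The median fold change was 1.25 in both directions. Only 3 rises and 2 falls were larger than 2-fold. The smallest log2 difference that passed was 0.263 in size, and among transcripts with P under 0.05 the largest that missed the fold threshold was 0.2625. A P under 0.05 was reached by 929 transcripts (3.66%), fewer than the 5% or about 1269 that this threshold gives when nothing differs. After Benjamini-Hochberg correction over all transcripts 1 passed an adjusted p of 0.05 in limma. The t-test of the methods, applied here to the pooled groups, gave 908 transcripts with P under 0.05. Of these 123 rises and 141 falls passed the fold threshold, and 0 passed an adjusted p of 0.05. All 12 insect meal pigs lay beyond the mean of group CON in 40 of the 166 rises and 47 of the 189 falls. When each of the 18 pigs was left out in turn, 45 rises and 61 falls kept their call throughout. Dim probe sets were called more often, with 2.05% of the dimmest 30% and 1.12% of the rest, and calls made up 1.25% of the probe sets with 1 gene name and 1.56% of those without. The gene lists below were chosen with earlier results from these arrays known. Nothing follows from their counts of calls, which stand beside 0.654% rises and 0.744% falls over all.

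The transcript that passed the correction is an unnamed one, probe set 15343369. It ranged from 4.62 to 5.72 in insect meal pigs with a median of 5.395, and from 3.94 to 4.91 in group CON with a median of 4.25. The groups overlapped through CON replicate 1, at 4.91, and IM5 replicate 2, at 4.62. The log2 difference was 0.99 (standard error 0.15, limma adjusted p = 0.0285), and a two-sided exact permutation test over 18564 arrangements of the pigs gave p = 0.000108. Leaving out each pig in turn kept its call in all 18 fits, but the limma adjusted p stayed under 0.05 in 5 of them and ranged from 0.00204 to 0.190. Those 5 fits left out CON replicate 1, IM5 replicate 1, IM5 replicate 2, IM10 replicate 4 or IM10 replicate 6. Exact permutation p-values, here and below, are not corrected over all transcripts. They belong to transcripts picked on these same arrays and are no independent evidence.

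Groups that did not overlap were found in 1 transcript with higher and 1 with lower levels in insect meal pigs, 0.00394% of all in each direction. Probe set 15328569 spanned 2.34 to 3.45 in insect meal pigs and 1.78 to 2.30 in group CON, with a log2 difference of 0.82. Probe set 15234618 spanned 2.15 to 2.78 in insect meal pigs and 2.87 to 3.67 in group CON, with a difference of -0.70. Both are unnamed and lie among the dimmest 30% of probe sets, and the limma adjusted p was 0.0983 for both.

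The transcript with the largest difference of all was carried by a probe set named for 2 genes, LOC100512656 and LOC100626199. LOC100512656 encodes a retinol dehydrogenase, an enzyme that interconverts retinol and retinal. Its level was 4.63 to 8.79 in insect meal pigs with a median of 8.10, and 3.90 to 7.73 in group CON with a median of 5.18. In the insect meal pigs 10 of 12 values were above 7, and the low values were those of IM5 replicate 2, at 4.63, and IM10 replicate 6, at 5.46, while CON replicate 1 was the one control pig in the upper range, at 7.73. The log2 difference was 2.20 (standard error 0.57), a 4.60-fold rise, with an adjusted p of 0.998 in limma over all transcripts and p = 0.00458 in a two-sided exact permutation test. For every other transcript named from here on the limma adjusted p over all transcripts was 0.998 as well, so that the calls rest on the unadjusted P. Among the 21 probe sets with 1 name on the list of retinoid metabolism and signalling genes, 2 rose and 0 fell, while 0.654% of all probe sets rose. The median difference of the list was 0.01, against a median of 0.00 over all transcripts. RBP7, an intracellular binding protein for retinol, rose by 0.40 (standard error 0.14), with 3.81 to 4.83 in insect meal pigs and 3.42 to 4.22 in group CON. CRABP2, which carries retinoic acid to its nuclear receptors, rose by 0.41 (standard error 0.17, exact permutation p = 0.0550, two-sided). It was 4.42 to 5.49 in insect meal pigs and 4.05 to 5.34 in group CON. The call of CRABP2 was lost by the t-test of the methods and without CON replicate 2, 4, 5 or 6, with differences of 0.33 to 0.39. The study refers to the LOC100512656 transcript as RDH16 and found it the most strongly raised one in muscle of group IM10. A separate probe set, annotated here as RDH16, was 0.61 higher in insect meal pigs and was not called.

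BTG2, an antiproliferative gene that responds early to stimuli and to p53, showed the largest fall. Its level was 7.09 to 9.75 in insect meal pigs with a median of 8.05, and 9.61 to 10.31 in group CON with a median of 9.70. In the insect meal pigs 11 of 12 values were below every control pig, and IM5 replicate 2, at 9.75, was the exception. The log2 difference was -1.48 (standard error 0.34), a 2.79-fold fall, with p = 0.00183 in a two-sided exact permutation test. Values scattered more in the 12 insect meal pigs (SD 0.91) than in the 6 of group CON (SD 0.27). Between the diets, the BTG2 mean of group IM10 minus that of group IM5 was -0.76 (standard error 0.36), with an unadjusted limma P under 0.05 but an adjusted p of 0.931. None of the other 12 probe sets for growth arrest genes and p53 targets was called, and their relatives BTG1, BTG3 and BTG4 had differences of 0.15, 0.04 and -0.09.

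ATF3, a stress-induced transcription factor of the ATF and CREB family, fell by 1.22 (standard error 0.33, exact permutation p = 0.00539, two-sided). It ranged from 5.39 to 8.34 in insect meal pigs with a median of 7.14, and from 7.23 to 9.03 in group CON with a median of 8.06. In 8 of the 12 insect meal pigs ATF3 was below every control pig. The means of groups IM10 and IM5 differed by -0.10 (standard error 0.39). On the list of immediate-early and AP-1 genes, which holds BTG2 and ATF3, 5 of 18 probe sets fell and 0 rose. Over all probe sets 0.744% fell. A lower mean in insect meal pigs was found in 16 of the 18, with a median difference of -0.18. The list was chosen with earlier results from these arrays known, so nothing follows from these counts. The other falls on the list were IFRD1, a transcriptional co-regulator of muscle differentiation (-0.60, standard error 0.19), JUN, a subunit of AP-1 (-0.56, standard error 0.27), and MYC, a growth-promoting transcription factor (-0.41, standard error 0.12). IFRD1 was 6.52 to 7.96 in insect meal pigs and 7.32 to 8.60 in group CON. MYC was 5.75 to 6.76 in insect meal pigs and 6.29 to 6.74 in group CON, and 10 insect meal pigs were below every control pig. JUN was 7.26 to 9.49 in insect meal pigs and 8.30 to 9.03 in group CON, with p = 0.0848 in a two-sided exact permutation test. Its call was lost by the t-test of the methods and without any 1 of 11 pigs. These were CON replicates 1, 4, 5 and 6, IM5 replicates 3, 5 and 6 and IM10 replicates 1, 2, 4 and 5, and without them the difference was between -0.58 and -0.48. Without IM10 replicate 2 the list therefore held 4 falls. FOS, the partner of JUN in AP-1, differed by -0.31, EGR1 by -0.01 and EGR2 by 0.20, and none of them was called. The mean level of the list was 6.36 to 7.41 in insect meal pigs and 6.92 to 7.33 in group CON, highest in IM5 replicate 1 and lowest in IM10 replicate 5.

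**Figure D1:**
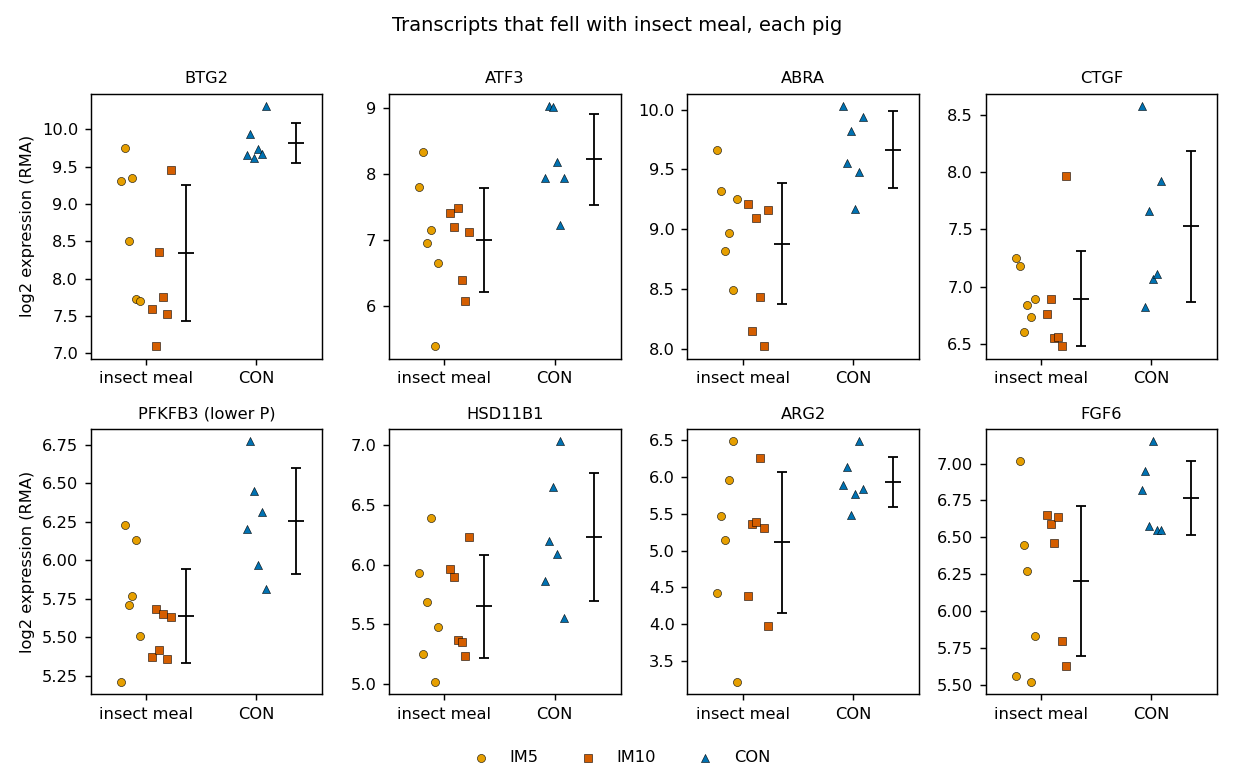
Log2 expression level of 8 transcripts that fell, with 1 point per pig (circles IM5, squares IM10, triangles CON) and bars for the mean and SD of the 12 insect meal pigs and the 6 pigs of group CON. BTG2 was below every control pig in 11 of 12 insect meal pigs, while the groups overlapped more widely in ARG2 and HSD11B1.

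Genes that respond to actin tension through SRF and YAP included 4 falls among 21 probe sets and 0 rises, while 0.744% of all probe sets fell. The median difference of this list was -0.09. ABRA, a muscle protein that binds actin and activates SRF signalling, was 8.02 to 9.66 in insect meal pigs with a median of 9.03, and 9.17 to 10.03 in group CON with a median of 9.685. All 12 insect meal pigs were below the mean of group CON and 8 were below every control pig. The difference was -0.78 (standard error 0.20, exact permutation p = 0.0035, two-sided). CTGF, a secreted matrix protein, was 6.48 to 7.97 in insect meal pigs and 6.82 to 8.58 in group CON, a difference of -0.64 (standard error 0.22). IM10 replicate 6, at 7.97, stood apart from the other insect meal pigs, which reached 7.25 at most. MYL9, the regulatory light chain of smooth muscle myosin, was measured by 2 probe sets with identical values, so that the 4 falls stand for 3 genes. MYL9 differed by -0.45 (standard error 0.21, exact permutation p = 0.0741, two-sided). Its call was lost by the t-test of the methods and without any 1 of 8 pigs, with differences of -0.45 to -0.31. These pigs were CON replicates 2, 4 and 5, IM5 replicates 1 and 6 and IM10 replicates 1, 2 and 6. Without IM10 replicate 2 the list held 3 falls. ANKRD1 and XIRP1, stretch-responsive proteins of the sarcomere, each differed by -0.49 without a call. Of the 21 probe sets 15 had a lower and 6 a higher mean in insect meal pigs. The highest of these differences was 0.78, also without a call.

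FBXO32, which encodes the muscle ubiquitin ligase atrogin-1, rose while FOXO1, a transcription factor known to switch FBXO32 on, fell. FBXO32 was 6.18 to 7.86 in insect meal pigs with a median of 7.06, and 5.55 to 7.07 in group CON with a median of 6.40. The log2 difference was 0.66 (standard error 0.23), with p = 0.0231 in a two-sided exact permutation test. FBXO32 averaged 6.39 at 0% insect meal (group CON), 7.39 at 5% and 6.70 at 10%. Group IM10 minus group IM5 was -0.68 (standard error 0.22), with an unadjusted limma P under 0.05 and an adjusted p of 0.931. FOXO1 was 4.87 to 5.74 in insect meal pigs with a median of 5.38, and 5.58 to 5.68 in group CON with a median of 5.62. Its difference was -0.28 (standard error 0.10), and group IM10 minus group IM5 was -0.26 (standard error 0.10, unadjusted limma P under 0.05, adjusted p = 0.931). The FOXO1 call was lost without IM10 replicate 2, where the difference was -0.24, and without IM10 replicate 6, also at -0.24, because it fell below the fold threshold. The other 18 of the 20 probe sets of FOXO factors and atrophy ligases were not called, among them FOXO3 at -0.01, FOXO4 at -0.17 and TRIM55 at 0.00, and the median of the list was 0.00.

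PFKFB3, which makes the sugar bisphosphate that activates phosphofructokinase and so speeds glycolysis, fell in both of its probe sets. The one with the lower P was 5.21 to 6.23 in insect meal pigs with a median of 5.64, and 5.81 to 6.77 in group CON with a median of 6.255, and 10 of the 12 insect meal pigs were below every control pig. Its difference was -0.61 (standard error 0.14, exact permutation p = 0.00167, two-sided), and that of the other probe set was -0.56 (standard error 0.16). HK2, the hexokinase that traps glucose in insulin-responsive muscle, rose by 0.33 (standard error 0.14), with 6.32 to 7.47 in insect meal pigs and 5.99 to 6.79 in group CON. Its call was lost without CON replicate 3, with a difference of 0.31, and without CON replicate 6, with 0.24. The remaining 16 of the 19 probe sets for glycolysis and its regulators were not called. The median of the list was -0.12 and 16 of 19 probe sets had a lower mean in insect meal pigs, including the enzymes PGK1, PKM and LDHA at -0.14, -0.14 and -0.10. GBE1, the branching enzyme of glycogen synthesis, rose by 0.41 (standard error 0.14), with 7.00 to 7.94 in insect meal pigs and 6.74 to 7.65 in group CON. It was the only one of 16 probe sets for glycogen metabolism to be called, and GYS1 and PYGM, which build and break down the glycogen chain, differed by -0.11 and -0.04.

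HGF, the growth factor that activates muscle satellite cells, rose by 0.59 (standard error 0.15, exact permutation p = 0.00259, two-sided). It ranged from 4.09 to 5.15 in insect meal pigs with a median of 4.46, and from 3.53 to 4.34 in group CON with a median of 3.87, and all 12 insect meal pigs were above the mean of group CON. On the list of satellite-cell and myogenic genes 3 of 12 probe sets rose and 0 fell, with a median difference of 0.07, while 0.654% of all probe sets rose. This list too was chosen with earlier results from these arrays known, so nothing follows from its count. The 3 rises included HGF. Besides HGF these were CXCR4, a chemokine receptor that guides migrating myogenic cells, and MYOF, a membrane protein of myoblast fusion and repair. CXCR4 was 5.50 to 6.21 in insect meal pigs and 5.43 to 5.80 in group CON, a difference of 0.33 (standard error 0.10). MYOF was 5.95 to 7.17 in insect meal pigs and 5.80 to 6.38 in group CON, a difference of 0.35 (standard error 0.13). CXCR4 and MYOF are also expressed by macrophages, whose markers were highest in IM10 replicate 2. That pig had the highest level of all pigs for HGF, at 5.15, and for MYOF, at 7.17, and for CXCR4 it was at 6.17. Without it the difference was 0.53 for HGF, 0.31 for CXCR4 and 0.28 for MYOF, and the 3 calls stood. The part of macrophages in these rises was not tested. The HGF receptor MET differed by 0.09, MYOD1 by 0.07 and MYOG by 0.15, none of them called. FGF6, a fibroblast growth factor made by muscle, fell by 0.56 (standard error 0.20), with 5.52 to 7.02 in insect meal pigs and 6.55 to 7.15 in group CON.

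**Figure D2:**
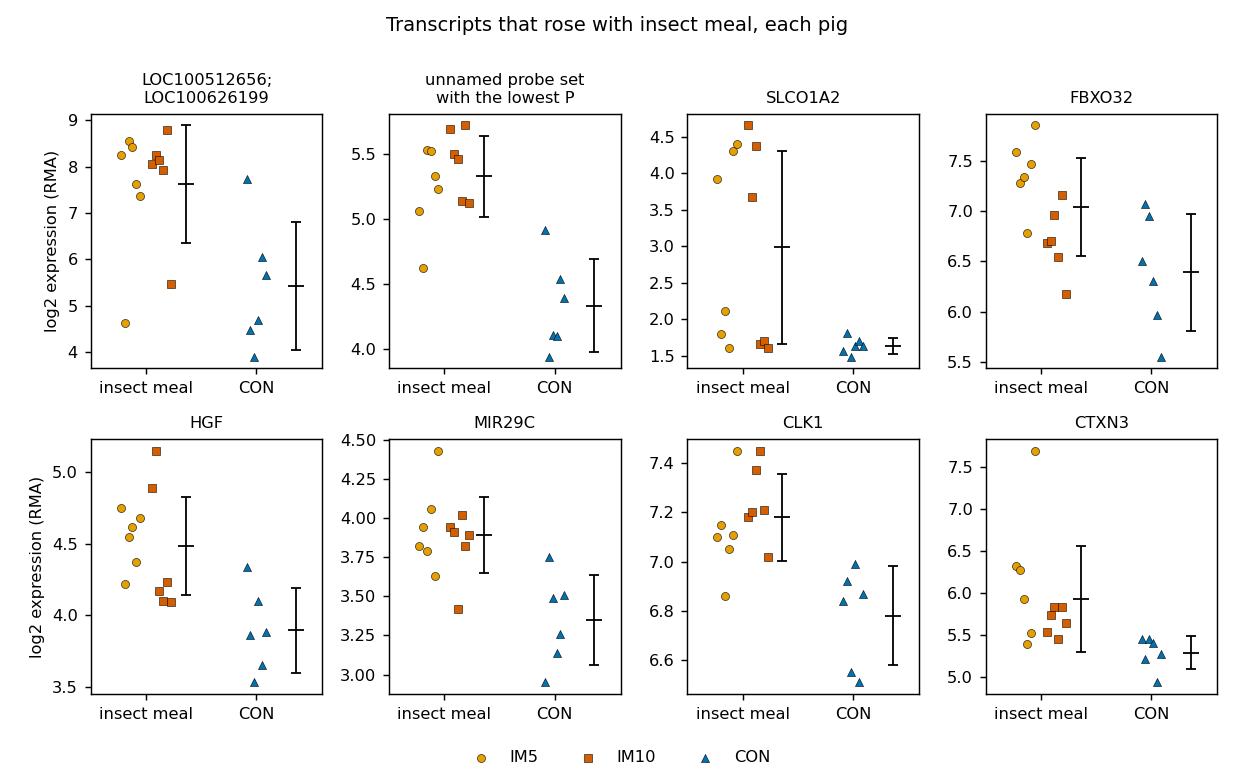
Log2 expression level of 8 transcripts that rose, with 1 point per pig (circles IM5, squares IM10, triangles CON) and bars for the mean and SD of the 12 insect meal pigs and the 6 pigs of group CON. SLCO1A2 split the insect meal pigs into 6 pigs at 3.67 or more and 6 at 2.12 or less, while CLK1 was above every control pig in 11 of 12.

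SLCO1A2, a transporter that takes up organic anions such as bile acids, was split into high and low levels among the insect meal pigs. It was 1.61 to 4.66 in insect meal pigs with a median of 2.895, and 1.49 to 1.81 in group CON with a median of 1.635. Of the 12 insect meal pigs 6 had levels of 3.67 to 4.66, with 3 such pigs in each diet, and the other 6 had 1.61 to 2.12, close to the control pigs. The SD was 1.32 in insect meal pigs and 0.11 in group CON. The difference was 1.35 (standard error 0.48), with p = 0.0238 in a two-sided exact permutation test, and the probe set lies among the dimmest 30%. Other rises on the list of organic anion, sugar and ion transporters were BEST3, a chloride channel (0.38, standard error 0.14), and KCNJ2, an inward-rectifier potassium channel (0.26, standard error 0.11), so that 3 of 17 probe sets rose and 0 fell. Over all probe sets 0.654% rose. For KCNJ2, group IM10 minus group IM5 was 0.28 (unadjusted limma P under 0.05, adjusted p = 0.931). Its pooled difference lay at the fold threshold and its call was lost without any 1 of 8 pigs, CON replicates 2 and 6, IM5 replicates 4 and 6 and IM10 replicates 1, 2, 3 and 4, with differences of 0.21 to 0.26.

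CLK1, a kinase that phosphorylates SR splicing factors, rose by 0.40 (standard error 0.09). It was 6.86 to 7.45 in insect meal pigs with a median of 7.165, and 6.51 to 6.99 in group CON with a median of 6.855. In 11 of the 12 insect meal pigs CLK1 was above every control pig, with IM5 replicate 3 the exception, and the exact permutation p (two-sided) was 0.000323. No other of the 17 probe sets of CLK kinases, SR factors and cold-inducible RNA-binding genes was called, and both CLK2 probe sets were higher by 0.13 and 0.17, within the fold threshold. BHLHE40, a repressor in the circadian clock, rose by 0.42 (standard error 0.16), with 8.92 to 10.20 in insect meal pigs and 8.57 to 9.71 in group CON, and without CON replicate 6 the difference was 0.29 and not called. It was the only call among 14 probe sets of clock genes, in which PER1 differed by -0.28, PER2 by 0.01 and CRY1 by -0.12.

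ARG2, the mitochondrial arginase that splits arginine into ornithine and urea, fell by 0.81 (standard error 0.35). It was 3.22 to 6.48 in insect meal pigs and 5.48 to 6.48 in group CON, and the SD was 0.96 in insect meal pigs and 0.34 in group CON. A two-sided exact permutation test of ARG2 gave p = 0.0616, and the call was lost by the t-test of the methods and without CON replicate 2, CON replicate 5 or IM10 replicate 6, with differences of -0.78 to -0.71. The other 18 probe sets of arginine, urea and polyamine metabolism were not called. In the list of the ATF4 and amino acid response 0 of 17 probe sets were called, with ASNS at -0.52 and ATF5 at 0.26. HSD11B1, which regenerates active cortisol from cortisone, fell by 0.58 (standard error 0.21), with 5.02 to 6.39 in insect meal pigs and 5.55 to 7.03 in group CON. ANGPTL4, a secreted inhibitor of lipoprotein lipase and a PPAR target, fell by 0.36 (standard error 0.12), with 4.38 to 5.28 in insect meal pigs and 4.99 to 5.48 in group CON. It was the only call among 21 probe sets of fatty acid oxidation and PPAR targets, and 0 of 16 probe sets of lipid synthesis and 0 of 9 of cholesterol synthesis and uptake were called.

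Further single calls stood on other lists. CXCL11, a chemokine induced by interferon, fell by 0.50 (standard error 0.11, exact permutation p = 0.000862, two-sided), with 2.81 to 3.60 in insect meal pigs and 3.29 to 4.03 in group CON, and its probe set is among the dimmest 30%. It was the only one of 25 probe sets of interferon-stimulated genes to be called. DNAJB5, a co-chaperone of the heat shock system, fell by 0.33 (standard error 0.13), the only call among 24 probe sets of heat shock and chaperone genes. PRDX1, which reduces peroxides, rose by 0.35 (standard error 0.16, exact permutation p = 0.0702, two-sided) as the only call among 29 probe sets of antioxidant and glutathione genes. The PRDX1 call was lost by the t-test of the methods and without any 1 of 8 pigs, CON replicates 2, 4, 5 and 6, IM5 replicates 1 and 6 and IM10 replicates 1 and 2, with differences of 0.28 to 0.37. CNP, an enzyme of myelin, fell by 0.32 (standard error 0.09, exact permutation p = 0.00108, two-sided), with 5.10 to 5.69 in insect meal pigs and 5.52 to 5.99 in group CON, while the other 6 probe sets of Schwann cell and myelin markers were not called. GRM4, a glutamate receptor of nerve cells, fell by 0.31 (standard error 0.10), a call lost without CON replicate 5, with -0.24. CLVS2, a lipid-binding protein of nerve cells whose probe set is among the dimmest 30%, fell by 0.27 (standard error 0.11). Its call was lost without CON replicate 1 or 5, IM5 replicate 2 or IM10 replicate 3, 4 or 5, with differences of -0.26 to -0.20. Together GRM4 and CLVS2 were the 2 calls among 12 probe sets of neuron markers, while 1.4% of all probe sets were called. The members of this list were chosen with earlier results from these arrays known, so nothing follows from its count.

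MicroRNA genes had 3 rises and 2 falls among 175 probe sets, of which 131 lie among the dimmest 30%. The share called was 2.86%, against 1.4% of all probe sets and 2.05% of the dimmest 30%. MIR29C, whose product silences collagen and other matrix transcripts, was 3.42 to 4.43 in insect meal pigs with a median of 3.90, and 2.95 to 3.75 in group CON with a median of 3.375. The difference was 0.54 (standard error 0.12, exact permutation p = 0.0007, two-sided), and 10 of the 12 insect meal pigs were above every control pig. The 31 probe sets of collagens and matrix held no call and had a median difference of -0.03. MIR15A rose by 0.40 (standard error 0.12) and MIR425 by 0.29 (standard error 0.11). The MIR425 call was lost without CON replicate 4 or IM10 replicate 1, with 0.20 and 0.25. MIR98, of the let-7 family, fell by 0.72 (standard error 0.21), with 2.02 to 3.54 in insect meal pigs and 2.31 to 3.61 in group CON, and MIR204 fell by 0.32 (standard error 0.09). Apart from MIR15A all of these are among the dimmest 30%, and the array does not tell a microRNA precursor from its mature product.

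Large differences were also found in named transcripts outside the lists. CTXN3, which encodes the small membrane protein cortexin, rose by 0.64 (standard error 0.23), with 5.40 to 7.69 in insect meal pigs and 4.94 to 5.45 in group CON, and IM5 replicate 6 was highest at 7.69. TATDN1, a nuclease, rose by 0.45 (standard error 0.11, exact permutation p = 0.00221, two-sided), with 5.95 to 6.97 in insect meal pigs and 5.94 to 6.19 in group CON, and 10 of 12 insect meal pigs were above every control pig. CENPJ, a protein of the centriole, rose by 0.42 (standard error 0.14), and CAVIN4, a coat protein of muscle caveolae, rose by 0.41 (standard error 0.11), with 4.86 to 5.66 in insect meal pigs and 4.52 to 5.08 in group CON. PDZD9, a PDZ domain protein, fell by 0.54 (standard error 0.22), and without CON replicate 2 or 3 the difference was -0.50 or -0.48 and not called.

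**Figure D3:**
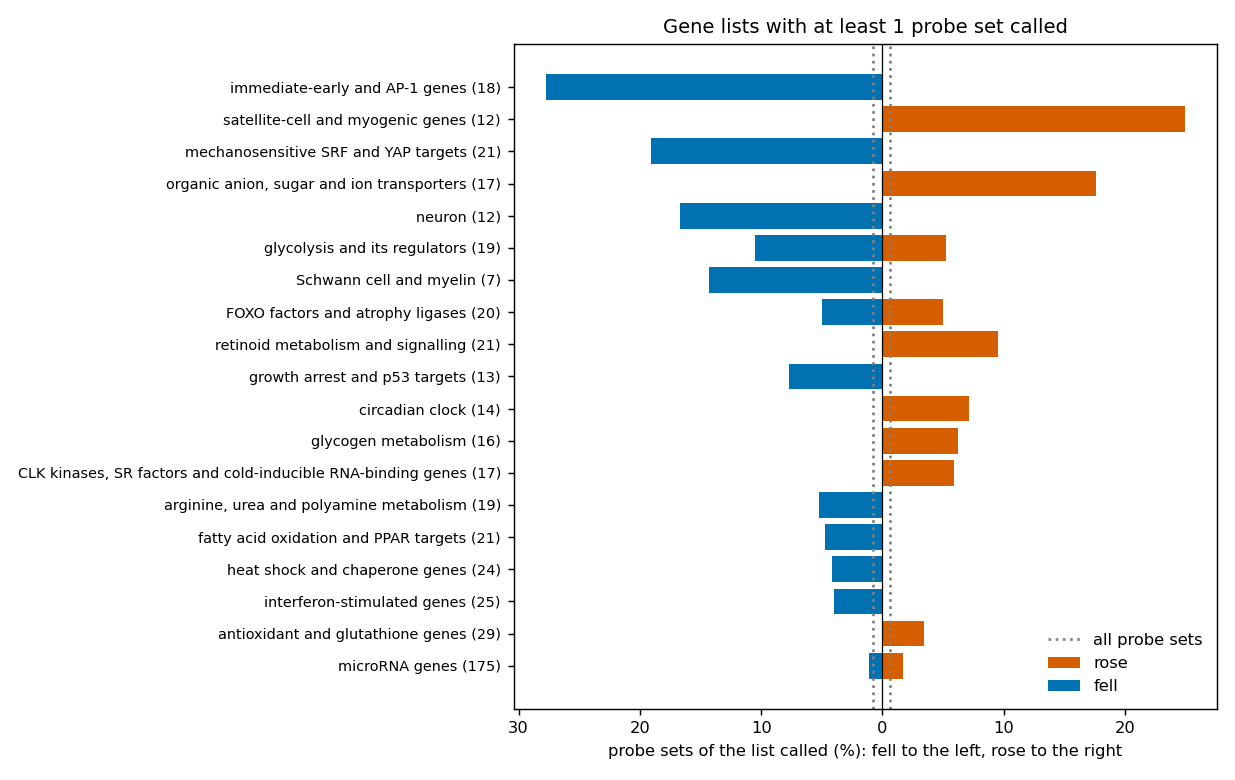
Percentage of the probe sets of each gene list that fell (bars to the left) or rose (bars to the right), for the 19 lists with at least 1 call, with the number of probe sets in parentheses and dotted lines at 0.744% and 0.654% for all probe sets. Immediate-early and AP-1 genes had the highest share of falls and satellite-cell and myogenic genes the highest share of rises, each from 12 to 18 probe sets. The lists were chosen with earlier results from these arrays known, so nothing follows from this ranking.

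In all, 43 lists were counted, 32 of pathways and families and 11 of cell type markers. The lists had been chosen with earlier results from these arrays known. All 43 together cover 804 probe sets, of which 38 were called, 4.73% against 1.4% of all probe sets, a comparison from which nothing follows about the lists for that reason. No probe set was called in 24 lists, among them the mitochondrially encoded subunits (9 probe sets), the nuclear oxidative phosphorylation genes (19), cytosolic ribosomal proteins (27), proteasome subunits (24), branched-chain amino acid breakdown (16), the IGF and myostatin axis (16), and the macrophage, T cell, B cell, endothelial, fibroblast, smooth muscle, adipocyte and erythroid markers. Without IM10 replicate 2 the counts were the same in 35 of the 43 lists. The 8 that changed did so by 1 probe set each. Besides the lists of immediate-early, SRF and YAP, and FOXO genes described above, these were the transporters with 2 rises, the antioxidant genes with 0, the microRNA genes with 4 rises, the neuron markers with 3 falls and the nuclear oxidative phosphorylation genes with 1 rise.

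Slow-fibre contractile genes were higher in insect meal pigs in all 12 of their probe sets, without any call. MYH7, the myosin heavy chain of slow fibres, was 9.26 to 12.20 in insect meal pigs with a median of 10.90, and 8.59 to 11.58 in group CON with a median of 10.525, a difference of 0.49 (standard error 0.44). TNNC1, slow troponin C, differed by 0.62 (standard error 0.52). The median difference of the list was 0.47, against -0.08 for the 12 probe sets of fast-fibre genes. The mean level of the slow-fibre list was 7.81 to 10.34 in insect meal pigs and 7.32 to 9.44 in group CON, and the difference of 0.45 was smaller than the SD among pigs, 0.77 in insect meal pigs and 0.78 in group CON. The part of fibre composition in the calls above was not tested. Macrophage markers had higher means in insect meal pigs in 18 of 19 probe sets with a median difference of 0.11, and in 11 of 19 with a median of 0.02 without IM10 replicate 2, and none was called.

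**Figure D4:**
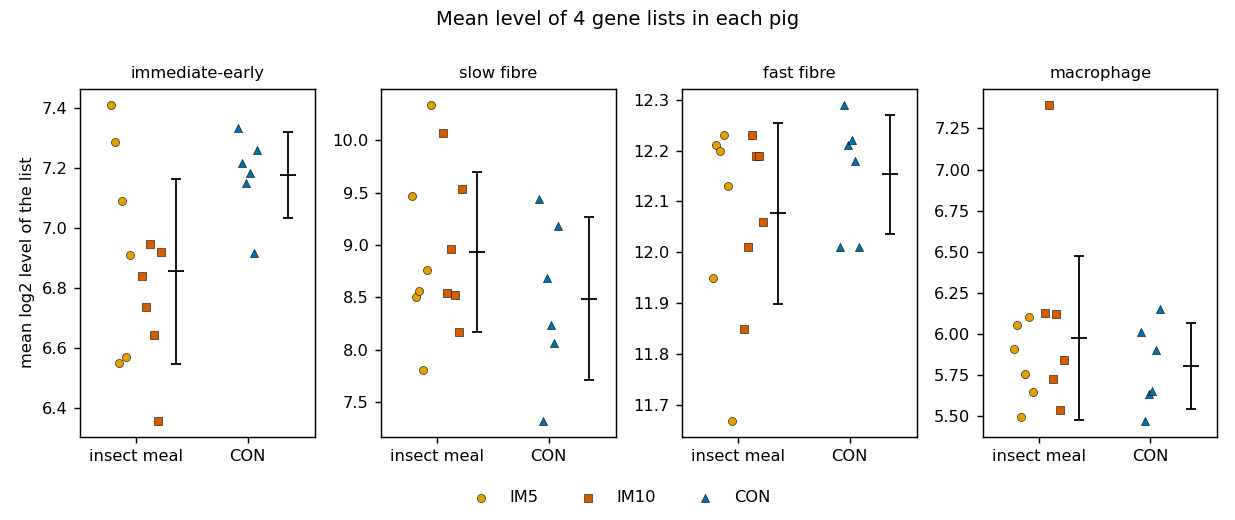
Mean log2 level of the immediate-early, slow-fibre, fast-fibre and macrophage lists in each pig (circles IM5, squares IM10, triangles CON), with bars for the mean and SD of the 12 insect meal pigs and the 6 pigs of group CON. IM10 replicate 2 stands apart in the macrophage list at 7.40, and the slow-fibre list spans more than 2 log2 units within both groups.

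Pigs of the 2 diets were also set against each other, a comparison that was not part of the calling. The difference of the means involves no control pig, but the standard errors and P come from a fit of all 3 groups, in which the control pigs add to the estimate of the spread. Between groups IM10 and IM5, 1324 transcripts (5.22% of all) reached an unadjusted limma P under 0.05, and the count past an adjusted p of 0.05 was 0. Among the 355 calls 20 did so, 10 rises and 10 falls, a share of 5.63% that is close to that of all transcripts. In no called transcript were the means of groups IM5 and IM10 on opposite sides of group CON, which the calling itself favours. Both means were beyond 1.2-fold in 89 of the 166 rises and 116 of the 189 falls. Group IM10 was farther from group CON than group IM5 in 57.2% of the calls, against 52.9% of all transcripts. Besides BTG2, FBXO32, FOXO1 and KCNJ2, the named transcripts with P under 0.05 between the diets were LMNB1 and PIGY. FBXO32, FOXO1, LMNB1 and PIGY had been picked as the called transcripts with the lowest P between the diets, so their differences between the diets are a description. LMNB1, lamin B1 of the nuclear envelope, was 3.27 to 4.57 in insect meal pigs and 4.08 to 4.81 in group CON. Its pooled fall was 0.37 (standard error 0.17, exact permutation p = 0.0616, two-sided), with means of 4.35 at 0% insect meal, 3.73 at 5% and 4.23 at 10%. Group IM10 minus group IM5 was 0.50 for LMNB1 (unadjusted limma P under 0.05, adjusted p = 0.931). The LMNB1 call was lost by the t-test of the methods and without CON replicates 1, 2 or 4, IM5 replicates 1, 2, 3 or 4 or IM10 replicate 6, with differences of -0.36 to -0.28. PIGY, a subunit of the first enzyme in the synthesis of membrane anchors, was 8.22 to 8.88 in insect meal pigs and 8.06 to 8.51 in group CON. It rose by 0.32 (standard error 0.09), and group IM10 minus group IM5 was -0.21 (unadjusted limma P under 0.05, adjusted p = 0.931).

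**Figure D5:**
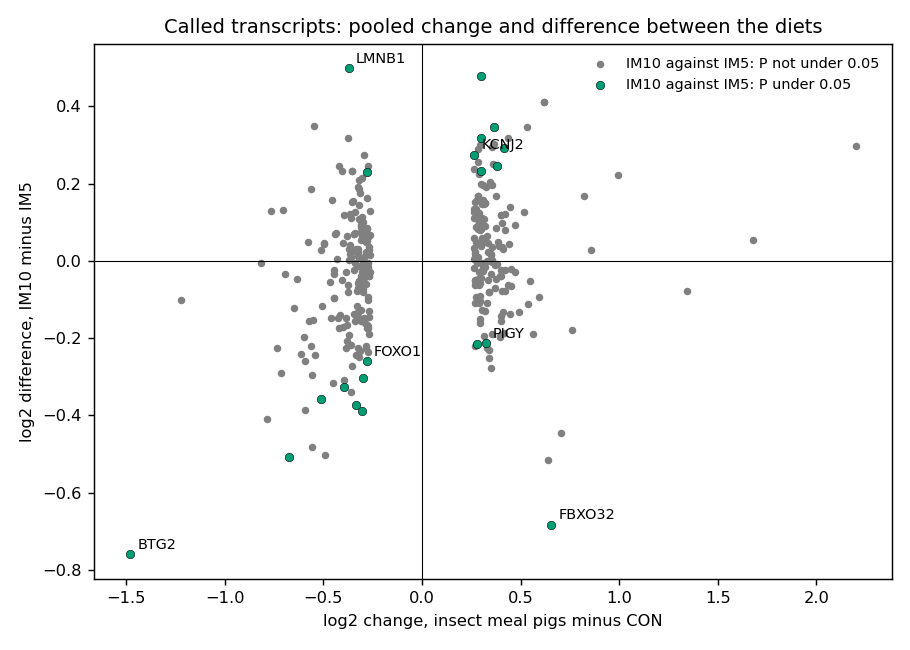
Each point is 1 of the 355 called transcripts, with the pooled log2 difference (insect meal pigs minus CON) on the horizontal axis and the log2 difference between the diets (IM10 minus IM5) on the vertical axis. The 20 transcripts with P under 0.05 between the diets are drawn in green, and 6 of them are named.

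Spread among pigs was similar in both groups, with a median SD over all transcripts of 0.193 in insect meal pigs and 0.179 in group CON. The SD was larger in insect meal pigs in 188 of the 355 calls and in 58.2% of all transcripts. Of the reference genes used for qPCR in this muscle, ATP5G1 differed by -0.07 (standard error 0.15). GAPDH was 13.02 to 13.27 in insect meal pigs and 13.16 to 13.21 in group CON, a difference of 0.00 whose sign changed without some of the pigs.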

How the data were processed

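Total RNA of gastrocnemius muscle from 18 pigs was hybridised to Affymetrix Porcine Gene 1.0 Sense Target arrays. The log2 values deposited by the authors come from RMA in Affymetrix Expression Console, per the submitters' processing notes (which corrects background, normalizes arrays against each other and sums up the probes of a set, in a version not given in the sources used here). They are given to 2 decimals and were used as deposited, with no column of another series. RMA compresses differences between dim probe sets, and the number of arrays limits the precision. Names came from the platform annotation, and 12874 of the 13327 probe sets with 1 name matched a current RefSeq record. No genome coordinates or sequences are given.

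The 12 arrays of groups IM5 and IM10 were compared with the 6 of group CON in a fit of 2 group means in limma 3.58.1 (lmFit, eBayes, R 4.3.3). Calls needed P under 0.05 and a fold change beyond 1.2, and adjusted p-values were read at 0.05. The difference between groups IM10 and IM5 came from a fit of 3 group means. Named transcripts were those past an adjusted p of 0.05, the 12 largest rises and falls with 1 name above the dimmest 30%, per gene list at most the 5 called members of lowest P, called probe sets above the dimmest 30% without overlap between groups (there were 0), the 4 with the lowest P between the diets, LOC100512656, BTG2, ATF3 and the qPCR reference genes. RPS9 and SDHA had no probe set of 1 name. The members and the lists were chosen with earlier results of these data known. Alternatives were 3 group means, the methods' t-test, the replicate block, no dim probe sets, other scaling, array weights, another prior, unlogged folds, 1 probe set per gene and leaving out each pig. Scripts (Python 3.11.15, numpy 2.4.6, pandas 2.3.3, scipy 1.17.1, matplotlib 3.10.9) were tested on simulated data.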

Additional observations from a re-analysis of the deposited data

Results flagged for a closer look

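In 153 groups of 6 values (each named transcript in each of the 3 diet groups) 11 values stood apart from the rest of their group by Dixon's criterion. Chance alone gives about 1 in 20, or 7.65, if the groups are independent. They are not, as the same pigs recur in them and the 2 MYL9 probe sets hold the same values. Group IM10 held 8 of the 11 values, some from the same pig. IM10 replicate 6 was at 7.97 for CTGF, with the nearest pig of its group at 6.89, at 2.23 for CLVS2, with 1.88 nearest, at 8.92 for BHLHE40, with 9.72 nearest, and at 5.46 for LOC100512656, with 7.92 nearest. IM10 replicate 2 was at 9.17 for DNAJB5, with 9.64 nearest, and at 8.22 for PIGY, with 8.47 nearest. IM10 replicate 4 was at 4.04 for MIR15A, with 4.51 nearest, and IM10 replicate 3 was at 3.42 for MIR29C, with 3.82 nearest. In group IM5, replicate 1 was at 9.85 for ATP5G1, with 9.18 nearest, and replicate 2 was at 4.63 for LOC100512656, with 7.36 nearest. In group CON, replicate 3 was at 5.34 for CRABP2, with 4.44 nearest. All of these pigs stayed in the comparison.

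For 6 named transcripts the difference between the diets had an unadjusted P under 0.05 in limma, and 4 of them (FBXO32, FOXO1, PIGY and LMNB1) had been named for a low P in this very comparison. Group IM10 minus group IM5 was -0.76 for BTG2, -0.68 for FBXO32, -0.26 for FOXO1, -0.21 for PIGY, 0.50 for LMNB1 and 0.28 for KCNJ2. No transcript of the array passed an adjusted p of 0.05 in this comparison, in which 1324 reached an unadjusted P under 0.05 in limma.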

How the results depend on the processing

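The counts of calls depended mainly on which probe sets were tested. Without the dimmest 30% of probe sets 99 rose and 100 fell, 12 of them differed between the diets and 0 were free of overlap in either direction. With 1 probe set per gene name 74 rose and 80 fell, 10 differed between the diets, and 0 were free of overlap or past an adjusted p of 0.05. Both settings test fewer probe sets. The t-test of the methods gave 0 transcripts past an adjusted p of 0.05 and 10 that differed between the diets, and array weights gave 2 past an adjusted p. Transcripts without overlap numbered 0 higher and 2 lower after centring on a common median, and 2 lower after another quantile normalization. A fit of 3 group means gave 171 rises and 190 falls. The cause of these changes was not tested beyond the number of probe sets.

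Leaving out each pig gave 160 to 237 rises, 178 to 243 falls, 0 to 1 transcripts past an adjusted p of 0.05, 16 to 28 that differed between the diets, a share of 48.0 to 59.1% farther in group IM10, and 1 to 4 higher and 1 to 6 lower without overlap. The widest counts without overlap came without CON replicate 1. For the named transcripts these fits kept 839 results and lost the call in 74, and the GAPDH difference changed sign in 5, within a range of -0.0103 to 0.0124. The other alternatives kept 528 and lost 20, among them CLVS2 and FOXO1 with array weights and MYL9, JUN and ARG2 with a trended and robust prior.

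Deviations of pigs with the same replicate number correlated at -0.122 to 0.305 in 18 pairs, over 0.1 in 5. Their mean was 0.073, against -0.015 for pairs with different numbers. The replicate 1 pigs correlated at 0.222 (CON with IM5), 0.305 (CON with IM10) and 0.302 (IM5 with IM10). The main fit did not take the numbers to pair pigs, and a block for replicate number was fitted as an alternative. The replicate block gave 187 rises, 215 falls and 1 transcript past an adjusted p of 0.05.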
